A study of Mus musculus with 18 samples.

Results

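Bpifc, Upp1, Dhrs9 and Zfp185 are 4 of the 47643 genes counted in cultured dorsal root ganglion (DRG) neurons, and they were selected on their measured rise, a large increase of the read count over the uninjured cultures after the axons were cut. Their rise against the uninjured cultures is therefore a description of that choice and carries no test here. The study asked how transcription in DRG neurons changes over the hours that follow axon injury. RNA was taken from spot cultures of DRG from e13.5 embryos of CD-1 mice, grown with nerve growth factor and with the mitotic inhibitor 5-fluorodeoxyuridine (FDU), which also the controls received. The groups were uninjured controls taken at day 7 in vitro (DIV7) and cultures axotomized with a blade and harvested after 1, 3, 8, 16 and 24 h (HPI, hours post injury), with 3 libraries in each and 18 in all. The labels give DIV7 as the day of collection and the methods give it as the day of injury, so whether the 24 HPI cultures were 1 day older than the controls cannot be told. Neither source states how many embryos or litters went into a culture.

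Library depth ran from 9478891 to 23082327 counts assigned to genes, so a single count was a large part of many values of the 4 genes. The cultures carried the markers of sensory neurons, with Prph between 3501 and 4388 CPM (counts per 1000000 counts on genes), Tubb3 between 2017 and 3131 CPM and Avil between 521 and 912 CPM over the 18 libraries. Markers of other cells were mostly low but not absent. Krt5 of keratinocytes was at 0 in 18 libraries and Itgam of myeloid cells at 0 in 15, while the myeloid genes Aif1 and Cd68 were between 2.00 and 4.94 and between 0.589 and 2.87 CPM, Krt10 between 0.949 and 2.53 CPM and the fibroblast gene Col3a1 up to 9.92 CPM. S100b, a glial marker that neurons can also express, was between 55.9 and 134 CPM. The first replicate at 16 HPI stood apart in its share of counts on rRNA-like genes, which was 2.14% against 0.664% to 1.26% in the others. Libraries that share a replicate number deviated together from their group means, so the replicate number was kept as a batch term in the main fit. Batch here means the libraries of the same replicate number. The sources used here do not say that these were handled together.

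The 4 genes belong to unrelated families. Upp1 encodes uridine phosphorylase, a cytosolic enzyme of pyrimidine salvage that splits uridine into uracil and ribose phosphate and that can also act on some fluorinated pyrimidine nucleosides. Dhrs9 is a short-chain dehydrogenase that oxidizes retinol and 3-alpha-hydroxysteroids, Bpifc belongs to the lipid-binding family of the bactericidal/permeability-increasing protein (BPI), and Zfp185 is a protein with a LIM zinc-binding domain that associates with the actin cytoskeleton. In neurons, a cut axon is known to bring about the induction and activation of transcription factors such as Jun and Atf3, and dimers of the Fos and Jun families bind the short DNA motif called AP-1.

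The promoters of the 4 genes are shown because 3 of them hold the letters of the AP-1 motif close to a RefSeq start of the gene. Each sequence below runs up to the annotated start or at most 20 bases past the earliest one, is printed 5′ to 3′ on the strand of its gene, and was taken from RefSeq on GRCm38.p6. Capitals mark AP-1 letters (TGAGTCA or TGACTCA). The stretches are chr11:9117758-9118007 on the plus strand for Upp1, chr2:69380212-69380461 on the plus strand for Dhrs9, chr10:86011876-86012110 on the minus strand for Bpifc and chrX:72987089-72987271 on the plus strand for Zfp185.
Upp1: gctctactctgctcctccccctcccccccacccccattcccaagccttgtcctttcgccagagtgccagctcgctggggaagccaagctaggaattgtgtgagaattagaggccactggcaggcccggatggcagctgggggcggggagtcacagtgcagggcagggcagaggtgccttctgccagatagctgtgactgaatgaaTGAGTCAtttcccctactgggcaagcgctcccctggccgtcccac
Dhrs9: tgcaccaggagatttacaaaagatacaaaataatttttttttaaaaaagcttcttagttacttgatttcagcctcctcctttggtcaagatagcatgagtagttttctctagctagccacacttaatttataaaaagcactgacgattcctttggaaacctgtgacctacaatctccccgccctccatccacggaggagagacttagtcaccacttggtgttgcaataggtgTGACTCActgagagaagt
Bpifc: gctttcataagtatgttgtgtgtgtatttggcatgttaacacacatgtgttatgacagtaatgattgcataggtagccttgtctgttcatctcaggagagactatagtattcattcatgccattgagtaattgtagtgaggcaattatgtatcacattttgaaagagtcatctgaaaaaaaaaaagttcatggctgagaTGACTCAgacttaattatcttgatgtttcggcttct
Zfp185: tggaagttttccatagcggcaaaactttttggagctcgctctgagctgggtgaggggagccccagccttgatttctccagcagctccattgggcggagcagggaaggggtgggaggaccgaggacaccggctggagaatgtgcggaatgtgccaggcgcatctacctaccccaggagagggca

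Motifs were searched in the window from 250 bases before to 50 bases after each RefSeq start, on both strands. All 4 genes were matched by symbol, with 6 windows between them because Upp1 has 3 listed starts, of which the first and the second share a part of their windows. The AP-1 letters began 45 bases before the first RefSeq start of Upp1, 18 bases before that of Dhrs9 and 51 bases before that of Bpifc. The GENCODE start of Dhrs9, 69380445, lies within its AP-1 letters (69380444 to 69380450). Most of these letters are therefore inside that annotated transcript. The letters of Bpifc (86011905 to 86011911, minus strand) lie before its GENCODE start at 86011895. The same match lay 140 bases before the second start of Upp1, and the window of the remaining start held none. No AP-1 letters were found in the window of Zfp185, taken from its RefSeq start at 72987339. An earlier annotated start, at 72987252, had no window of its own. Of all 32851 promoter windows 5.2% held these letters, and of the 10145 tested genes with a window 4.19% did. Within the 100 bases before a RefSeq start, the same 3 genes held a match, Upp1 only before its first start. The GENCODE start of Upp1, 9118103, is its second RefSeq start, so its letters lie outside the 100 bases before that one. Beside these genes, 1.88% of all windows held a match within 100 bases, a share of windows and not of genes.

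Of the 10 other motifs searched, 7 matched none of the 4 genes: CRE (TGACGTCA), the C/EBP-ATF composite (TGATGCAA or TTGCATCA), the antioxidant element (TGACNNNGC), STAT (TTCNNNGAA), E-box (CACGTG), the p53 site and the CArG box. The GC box (GGGCGG), present in 35.7% of all windows and 69.7% of those of tested genes, was found in Upp1, Dhrs9 and Zfp185. The TATA box letters (TATAAA), in 13.6% of all windows, were found in Dhrs9 as a pair of overlapping matches that began 124 and 122 bases before the start, and the CCAAT letters, in 37.4% of windows, were found in Zfp185 163 bases before the start, overlapping a GC box. The promoter of Zfp185 was also the richest in G and C, at 65.3% of the bases of its window, and that of Bpifc the poorest, at 38.7%, beside a median of 52.7% over all windows. A match of letters is a description of the sequence and not of binding.

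**Figure D1:**
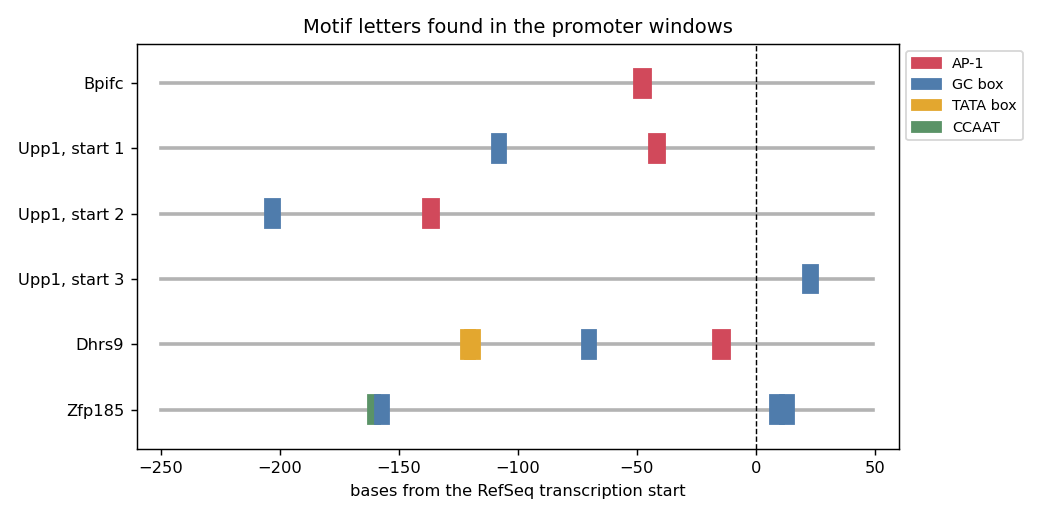
Motif letters found in the promoter windows of the 4 genes. The horizontal axis is the distance in bases from each RefSeq transcription start (dashed line), each grey line is a window of 250 bases before to 50 after a start, and boxes mark the matches, with red AP-1 boxes in Bpifc, Upp1 and Dhrs9 and none in Zfp185.

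Upp1 was almost undetected in the uninjured cultures. It lies on chr11:9118103-9136170 on the plus strand (GRCm38, GENCODE vM21; ENSMUSG00000020407.13). In the order of replicates 1, 2 and 3, its raw counts were 0, 1 and 1 in control, 1, 1 and 4 at 1 HPI, and 0, 2 and 3 at 3 HPI. The later groups held 2, 4 and 4 counts (8 HPI), 6, 23 and 19 (16 HPI) and 9, 25 and 25 (24 HPI). Every library at 8, 16 and 24 HPI was thus above every control library, but at 8 HPI the excess rested on single reads. Scaled to library size, the mean level was 0.0409 ± 0.0372 CPM in control and 0.248 ± 0.158 CPM at 8 HPI (SD, n = 3), and it reached 0.952 ± 0.502 and 0.969 ± 0.389 CPM at 16 and 24 HPI.

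Against control, the fitted log2 fold change of Upp1 was 2.37 (SE 0.83) at 8 HPI, 4.35 (SE 0.59) at 16 HPI and 4.41 (SE 0.57) at 24 HPI. With only 2 control reads the size of these folds is poorly fixed. The summed counts at 24 HPI, 59 against 2, gave a ratio of 27.0 after scaling to depth, with an exact 95% interval of 7.15 to 228 that covers counting error only. Upp1 was lowest in replicate 1 at both late time points, at 0.390 CPM against 1.35 and 1.11 at 16 HPI and at 0.519 against 1.21 and 1.18 at 24 HPI. At 3 HPI neither group exceeded 3 counts in any library, and no fold is given.

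Dhrs9 was detected in every library, and its counts at 1 and 3 HPI overlapped those of control. The gene lies on chr2:69380445-69404533 on the plus strand (ENSMUSG00000027068.6). Its raw counts were 2, 4 and 5 in control, 1, 7 and 4 at 1 HPI, and 6, 3 and 5 at 3 HPI. The next 3 groups held 9, 7 and 17 (8 HPI), 30, 20 and 30 (16 HPI) and 27, 45 and 36 (24 HPI). In CPM, every library at 8 HPI lay above every library of control, 1 HPI and 3 HPI, and every library at 16 HPI above every one at 8 HPI.

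The mean level of Dhrs9 was 0.213 ± 0.102 CPM in control and 0.714 ± 0.189 CPM at 8 HPI (SD, n = 3), followed by 1.63 ± 0.402 and 1.81 ± 0.326 CPM at 16 and 24 HPI. Among the 3 genes that were highest late, Dhrs9 had the closest agreement between replicates at 16 and 24 HPI relative to its mean. Its log2 fold change against control was 0.098 (SE 0.65) at 1 HPI and 0.19 (SE 0.63) at 3 HPI. The fold then reached a log2 of 1.78 (SE 0.52) at 8 HPI, 2.93 (SE 0.43) at 16 HPI and 3.10 (SE 0.41) by 24 HPI. The ratio of summed counts at 24 HPI, 108 against 11, was 8.98 (exact 95% interval 4.83 to 18.5, counting error only).

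Bpifc had the largest count of the 4 genes in any library. It lies on chr10:85959340-86011895 on the minus strand (ENSMUSG00000050108.12). Raw counts were 1, 2 and 2 in control, 6, 3 and 3 at 1 HPI, and 3, 6 and 1 at 3 HPI. The 8 HPI libraries held 9, 5 and 8, those at 16 HPI 95, 40 and 42, and those at 24 HPI 56, 46 and 28. The ranges at 8, 16 and 24 HPI lay above the control range. At 1 HPI the lowest library, 0.148 CPM, was only just above the highest control library, 0.145 CPM, and at 3 HPI the ranges overlapped.

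The mean level of Bpifc was 0.0981 ± 0.0482 CPM in control and 0.486 ± 0.0591 CPM at 8 HPI (SD, n = 3), and its late means were 3.66 ± 2.17 (16 HPI) and 2.26 ± 0.958 CPM (24 HPI). The wide SD at 16 HPI came from replicate 1, at 6.17 CPM against 2.35 and 2.46, which was the library with the highest rRNA-like share, and the part of that share in the value was not tested. Replicate 1 was also the highest of the 3 at 24 HPI, at 3.23 CPM against 2.23 and 1.32. The log2 fold change of Bpifc was 1.17 (SE 0.75) at 1 HPI and 0.83 (SE 0.78) at 3 HPI, with few reads behind both. It was 2.32 (SE 0.65) at 8 HPI, then 5.20 (SE 0.41) after 16 h and 4.54 (SE 0.45) after 24 h. These values leaned on replicate 1 of the control, which held a single read, and without it they were 1.46, 4.36 and 3.70 at 8, 16 and 24 HPI. The ratio of summed counts was 38.8 at 16 HPI (177 against 5, exact 95% interval 16.3 to 121) and 23.8 at 24 HPI (130 against 5, interval 9.94 to 74.5). Both intervals cover counting error only and not the spread between libraries, and 95 of the 177 reads came from replicate 1.

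Zfp185 followed another course. It lies on chrX:72987339-73031543 on the plus strand (ENSMUSG00000031351.15) and overlaps the microRNA gene Mir2137 on the same strand, which held 1 count in all libraries together. Its counts were 8, 5 and 15 in control, 30, 27 and 43 at 1 HPI, and 10, 26 and 23 at 3 HPI. The libraries at 8 HPI had 17, 6 and 28, those at 16 HPI 20, 22 and 43, and those at 24 HPI 10, 23 and 24. The mean was highest at 1 HPI, lower at 3 and 8 HPI, high again at 16 HPI and near the 3 HPI value at 24 HPI.

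The mean of Zfp185 was 0.501 ± 0.215 CPM (SD, n = 3) in control and 1.89 ± 0.767 at 1 HPI. At 3 and 8 HPI it was 0.976 ± 0.388 and 1.02 ± 0.419 CPM, and at 16 and 24 HPI 1.70 ± 0.706 and 0.940 ± 0.314 CPM. Only at 1 and 16 HPI did all 3 libraries lie above all 3 controls. Replicate 3 held the highest value in every group, 0.749 CPM in control, 2.76 at 1 HPI and 2.52 at 16 HPI among them. Compared by replicate number, Zfp185 was above the same-numbered control in 3 of 3 pairs at each time point. The log2 fold change was 1.86 (SE 0.29) after 1 h, with 0.96 (SE 0.32) and 1.06 (SE 0.33) after 3 and 8 h. It was 1.70 (SE 0.30) after 16 h and 0.88 (SE 0.33) after 24 h. The ratio of summed counts at 1 HPI, 100 against 28, was 3.52 (exact 95% interval 2.29 to 5.56, counting error only).

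**Figure D2:**
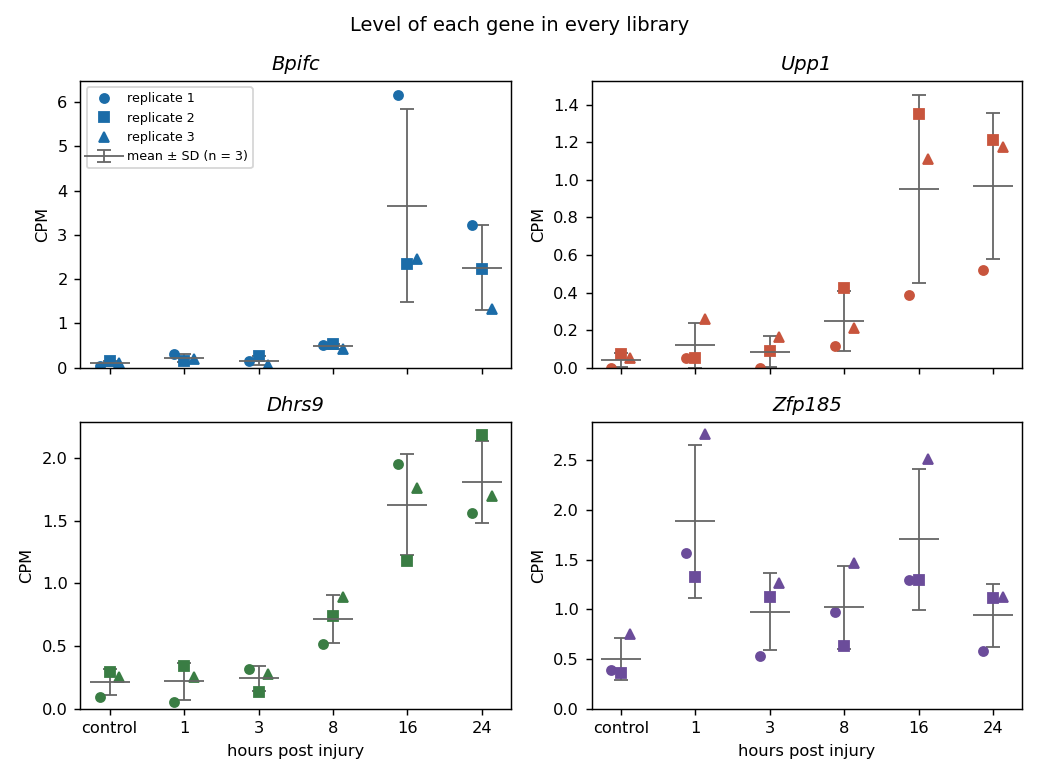
Level of each gene in every library. Each panel shows CPM on a linear axis from 0 (scales differ between panels) against hours post injury, with a symbol for each replicate and grey marks for the mean ± SD of 3 libraries. Bpifc, Upp1 and Dhrs9 are high at 16 and 24 HPI, while Zfp185 is highest at 1 HPI (mean 1.89 CPM) and 16 HPI (1.70 CPM).

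Read across the 4 genes, 3 had a log2 fold change over 1 at 1 HPI (Bpifc, Upp1 and Zfp185), where 0.0944% of the 13771 genes tested had one. For Upp1 the value was 1.37 (SE 0.93), and 0.47 without replicate 3 at 1 HPI, while that of Bpifc was 0.32 without replicate 1 of the control. At 3 HPI none of the 3 genes for which a fold is given had one, beside 0.102% of all genes tested, although Zfp185 at 0.96 and Bpifc at 0.83 were close to it and reached 1.15 and 1.29 with 1 library left out. At 8 HPI all 4 did, beside 0.349%, with Zfp185 at 1.06 and down to 0.91 with 1 library left out. At 16 HPI it was again all 4, beside 1.21%, and at 24 HPI it was Bpifc, Upp1 and Dhrs9, beside 0.675%. Ranked by log2 fold change at 24 HPI, Bpifc was number 1, Upp1 number 2 and Dhrs9 number 3 of 13771, and Zfp185 was number 125. These ranks restate the choice of the genes, and nothing is read from them.

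**Figure D3:**
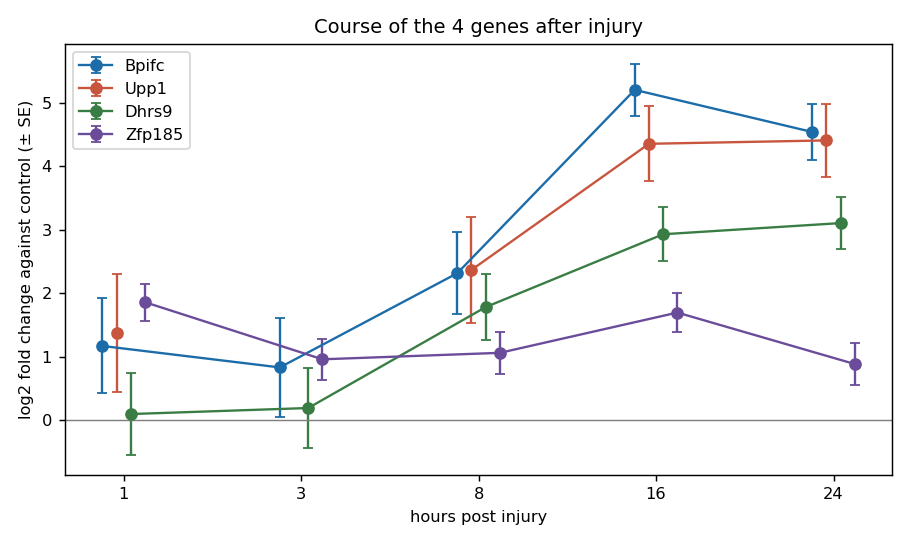
Log2 fold change of the 4 genes against uninjured control by hours post injury, with standard errors from the fit to all 18 libraries. No point is drawn for Upp1 at 3 HPI, where no library of either group exceeded 3 counts. Bpifc reaches 5.20 at 16 HPI, Upp1 and Dhrs9 are at 4.41 and 3.10 at 24 HPI, and Zfp185 starts at 1.86 at 1 HPI.

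Even after the rise all 4 transcripts were scarce. Per kilobase of exon (RPKM), which allows levels of different genes to be set side by side, the means at 24 HPI were 0.793 ± 0.336 for Bpifc, 0.494 ± 0.199 for Upp1, 0.423 ± 0.0763 for Dhrs9 and 0.254 ± 0.0848 for Zfp185 (SD, n = 3). The replicate ranges of Bpifc, Upp1 and Dhrs9 overlapped. The value for Upp1 depended on the length taken for the gene and was 0.759 RPKM when its longest transcript of 1277 bases was used in place of its 1961 exon bases. The highest point, Bpifc at 16 HPI with 1.29 RPKM, stood at percentile 23.3 of the genes tested, and Upp1 and Dhrs9 at 24 HPI stood at percentiles 10.9 and 9.15.

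These low levels also decided that the genes could be tested at all. A gene entered the tests with over 1 CPM in at least 3 libraries. Bpifc and Dhrs9 passed with 6 libraries and Upp1 with 4, all of them at 16 or 24 HPI, while Zfp185 passed with 11 libraries from every injured group. The first 3 genes thus passed only through the groups where they were high.

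The order of the groups by mean CPM was the same for Upp1 and Dhrs9 at its top, with 24 HPI above 16 HPI and 16 HPI above 8 HPI, and the ranges of 24 and 16 HPI overlapped in both. For Upp1 those of 16 and 8 HPI overlapped too, since replicate 1 at 16 HPI lay below replicate 2 at 8 HPI. For Bpifc 16 HPI came first, then 24 HPI and then 8 HPI, and again the first pair overlapped. Below 8 HPI, the neighbouring groups of these 3 genes (1 HPI, 3 HPI and control) overlapped, and neighbours could not be ordered. In Bpifc the 1 HPI and control groups, which were not neighbours, were only just apart (lowest 0.148 against highest 0.145 CPM). For Zfp185 the order was 1, 16, 8, 3 and 24 HPI and then control, and every pair of neighbours in it overlapped.

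The steps between successive injured time points do not use the control libraries, but the injured libraries also entered the choice of the 4 genes, and Bpifc, Upp1 and Dhrs9 were measured above the filter only through 16 and 24 HPI. The steps are therefore described with their standard errors and carry no test. From 8 to 16 HPI the fitted log2 difference was 2.89 (SE 0.31) for Bpifc, 1.99 (SE 0.43) for Upp1 and 1.15 (SE 0.34) for Dhrs9, each higher in 3 of 3 batches. Zfp185 was higher by 0.63 (SE 0.27), also in 3 of 3 batches. Of the 4 estimates, that of Bpifc was the largest, and without the first replicate at 16 HPI it was 2.499.

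From 3 to 8 HPI the estimates were a log2 of 1.59 (SE 0.49) for Dhrs9, 1.48 (SE 0.56) for Bpifc and 1.40 (SE 0.69) for Upp1, each higher in 3 of 3 batches. Between 5 and 33 counts per group stood behind these 3 values, and without replicate 2 at 3 HPI the value of Bpifc was 2.24. Zfp185 was at 0.10 (SE 0.29) for the same step.

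From 16 to 24 HPI Bpifc was lower by a log2 of -0.66 (SE 0.22) and Zfp185 by -0.81 (SE 0.26), each in 3 of 3 batches, although without replicate 1 at 16 HPI the value of Bpifc was -0.31. For Upp1 the step was 0.053 (SE 0.29) and for Dhrs9 0.18 (SE 0.27), both smaller than their standard errors. From 1 to 3 HPI Zfp185 was lower by -0.90 (SE 0.25) in 3 of 3 batches, and for the other 3 genes the estimate was smaller than its standard error.

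**Figure D4:**
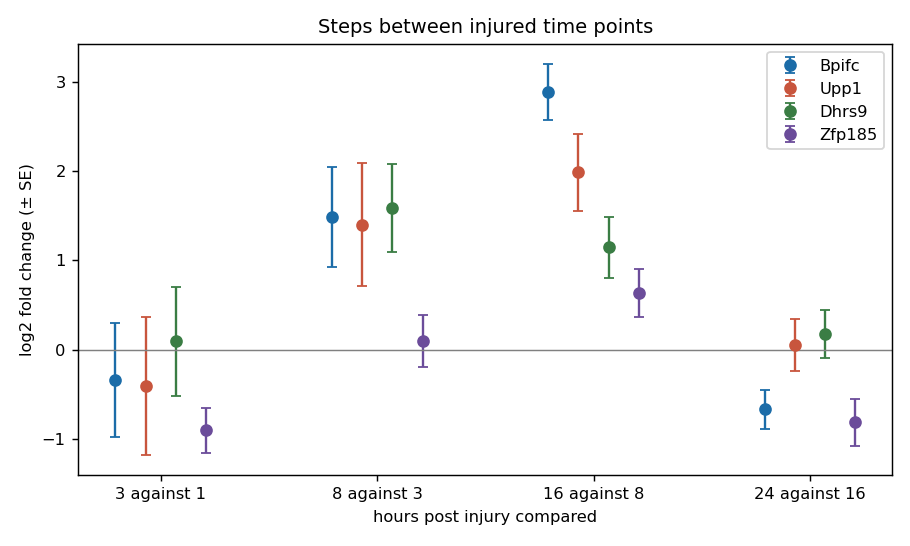
Log2 fold change between successive injured time points for each gene, with standard errors and no test. From 8 to 16 HPI the points of Bpifc, Upp1 and Dhrs9 are at 2.89, 1.99 and 1.15.

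The likeness of the courses was described by Pearson's r over the 18 libraries, in log2 CPM with the replicate means removed, which are points that share libraries, depth and control samples. The r was 0.93 between Bpifc and Upp1, 0.91 between Bpifc and Dhrs9, and 0.87 between Upp1 and Dhrs9. These genes were chosen for their rise in the same libraries, so a high r among them follows in part from that choice. Zfp185 had an r of 0.39 with Bpifc, 0.33 with Upp1 and 0.16 with Dhrs9.

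Over all genes tested, the pattern most like that of Bpifc was that of Sat1, which encodes a polyamine acetyltransferase (r = 0.97), followed by Sqstm1, a receptor for selective autophagy, and by Grsf1, Smim3 and Tmem43. Pearson's r compares the shape of the courses and not the size of the change. Of these genes, Smim3 went from 0.467 CPM in control to 3.97 at 16 HPI, and the others changed less in proportion. Sat1 went from 32.3 to 58.7 CPM, Sqstm1 from 486 to 663, Grsf1 from 105 to 134 and Tmem43 from 42.7 to 66.1. For Upp1 it was Sat1 again (r = 0.94), then the kinase gene Stk3, the netrin receptor gene Unc5d, the tropomyosin gene Tpm4 and Rin1. For Dhrs9 it was the diacylglycerol kinase gene Dgkd (r = 0.97), with ENSMUSG00000104475.1, Prr32 and the LIM-domain gene Zyx also among the nearest (r = 0.92). The nearest genes to Zfp185 were less alike, from Ccdc115 at r = 0.87 through Pkmyt1, Hmgb2 and Atp6v1h to Polr2c at r = 0.82.

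Genes of the pathways or families around each of the 4 were counted next, leaving the 4 themselves out. In the list for pyrimidine nucleosides, around Upp1, 34 of the 40 genes matched by symbol were tested. The number higher and lower against control was 2 and 4 at 16 HPI and 2 and 2 at 24 HPI, with a median log2 fold change of -0.020 and 0.034. Over all genes tested 10.7% were higher and 11.5% lower at 16 HPI, and 5.99% and 9.03% at 24 HPI, around a median of -0.0022 and 0.0020. Upp2, the second uridine phosphorylase gene, was lower at 16 HPI by a log2 of -0.34 (SE 0.12, edgeR adjusted p = 0.0421), a call lost in 4 of 6 alternative fits, from 6.58 ± 1.56 CPM in control to 5.26 ± 0.730 CPM. Slc29a1, an equilibrative nucleoside transporter, was higher at 24 HPI by 0.93 (SE 0.23, edgeR adjusted p = 0.0092), and Cad, which starts pyrimidine synthesis, was lower by -0.42 at 16 HPI and -0.37 at 24 HPI (edgeR adjusted p = 0.000448 and 0.00266). Cmpk2, a mitochondrial nucleotide kinase, was lower by -0.50 at 16 HPI (edgeR adjusted p = 3.77e-05). Without the replicate term the calls of Slc29a1, Cad and Cmpk2 were lost.

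In the list for retinoid and 3-alpha-hydroxysteroid metabolism, around Dhrs9, 21 genes were tested. At 16 HPI 3 were higher and 2 lower, and at 24 HPI 1 was higher and 1 lower, with medians of 0.060 and 0.036. Over all genes tested 22.2% passed at 16 HPI and 15% at 24 HPI. The retinal reductase gene Dhrs3 was lower at 16 HPI by -0.47 (edgeR adjusted p = 0.0204), a call lost without the replicate term. The retinol dehydrogenase gene Rdh10 was higher by 0.42 at 16 HPI (0.0254) and Dhrs4 by 0.49 at 24 HPI (0.0133), calls that 3 and 2 of 6 alternative fits did not retain. The retinoic acid receptor gene Rara was higher by 0.75 at 16 HPI (edgeR adjusted p = 0.0452), which 4 of 6 alternative fits did not retain.

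None of the 16 other genes of the BPI fold list, around Bpifc, reached the level needed for a test. In 14 of them no library held more than 3 counts, and the exceptions, the lipopolysaccharide-binding protein gene Lbp and the phospholipid transfer protein gene Pltp, had at most 18 and 15 counts in a library. Lbp was at 0.572 ± 0.268 CPM in control and 0.792 ± 0.135 at 16 HPI. Bpifc was thus the only member of its family that these libraries measured above 1 CPM in at least 3 samples. It did so only at 16 and 24 HPI, so this restates its choice. In control Bpifc was at 0.0981 CPM, below Lbp and below Pltp at 0.533 CPM.

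In the list of LIM-domain and actin-linked genes, around Zfp185, 35 genes were tested. At 16 HPI 9 were higher and 5 lower, and at 24 HPI 7 were higher and 5 lower, with medians of 0.074 and 0.075, where 10.7% of all genes tested were higher and 11.5% lower at 16 HPI and 5.99% and 9.03% at 24 HPI. Those with the largest values are genes of focal adhesions and actin filaments: Pxn, the gene of paxillin, was higher by 1.21 at 16 HPI and 0.59 at 24 HPI, Csrp1 by 0.73 and 0.93, Fblim1 by 0.70 and 0.98, and Pdlim1 by 0.74 and 0.53, with edgeR adjusted p-values from 1.87e-06 to 0.0333. Without the replicate term the calls of Csrp1 at both times and of Pxn and Pdlim1 at 16 HPI were kept, and the others of these were lost. At 1 HPI, where Zfp185 had its highest mean, 0 of the 35 passed in edgeR, with 3 at an unadjusted p under 0.05 and 0 passing in DESeq2. Limch1, a relative with a LIM domain, was higher by 0.32 at 16 HPI (edgeR adjusted p = 0.0164), and Lmo7 and Scel were too low to be tested.

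Over the 3 lists that could be tested, 90 genes in all, 25 (27.8%) passed in edgeR at 16 HPI, beside 22.2% of all genes tested, and 18 (20%) at 24 HPI, beside 15%. At 1 HPI 0 passed, beside 0.276% of all genes tested, with 7 at an unadjusted p under 0.05 and 1 in DESeq2. At 3 HPI 1 passed, beside 0.189%, and at 8 HPI 8 passed, beside 7.68%. Without the replicate term the number was 7 at 16 HPI and 2 at 24 HPI, and of the calls named for the pyrimidine and retinoid lists none was kept (adjusted p from 0.129 to 0.589). Leaving out 1 of the 18 libraries ended the call of Rara in 12 cases, of Upp2 in 7, of Fblim1 at 16 HPI in 4, of Dhrs3 and Rdh10 in 3 each, of Dhrs4 in 2 and of Slc29a1 in 1.

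**Figure D5:**
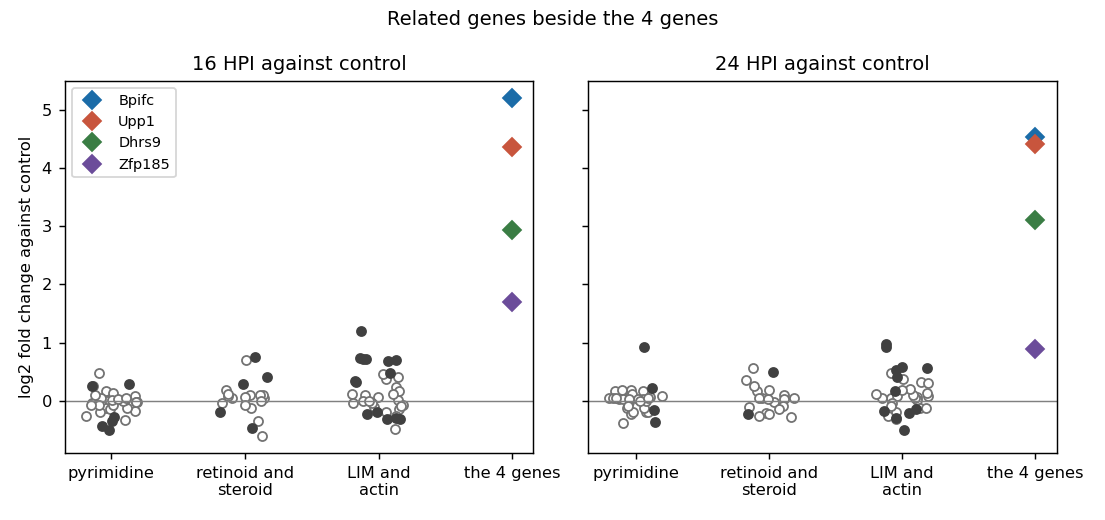
Log2 fold change against control at 16 HPI (left) and 24 HPI (right) for the tested genes of 3 lists, pyrimidine nucleosides (34 genes), retinoid and steroid metabolism (21) and LIM-domain and actin-linked genes (35), beside the 4 genes. Dark points passed an adjusted p of 0.05 in edgeR, open points did not, and the 4 genes carry no test. The highest list gene is Pxn at 1.21 at 16 HPI, and the place of the 4 genes follows from their choice.

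Genes next to the 4 were examined at each time point. The nearest tested gene on each side was Rtcb and Fbxo7 for Bpifc, Hus1 and Abca13 for Upp1, Spc25 and Bbs5 for Dhrs9, and Nsdhl and Pnma3 for Zfp185. Rtcb ends 1517 bases from Bpifc and was measured at 117 CPM in control, and its log2 fold change at 16 HPI was 0.10 (edgeR adjusted p = 0.145). At 16 HPI 0 of these 8 neighbours passed in edgeR, with 3 at an unadjusted p under 0.05 and 0 in DESeq2, where 22.2% of all genes tested passed in edgeR, and their values ran from -0.21 to 0.56. At 24 HPI Nsdhl was lower by -0.25 (SE 0.066, edgeR adjusted p = 0.0127), a call lost without the replicate term, without replicate 2 of the control or without replicate 2 or 3 at 24 HPI, and the other 7 did not pass.

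In bulk RNA, more cells of a type and more RNA per cell cannot be told apart, and markers of some other cells moved over the same hours as Bpifc, Upp1 and Dhrs9. The 8 myeloid markers summed to between 3.63 and 6.07 CPM in control and between 6.75 and 7.86 CPM at 24 HPI, with means of 4.85 and 7.40. Of these, Cd68 and Aif1 were abundant enough to be tested. Cd68 passed upward at 2 time points and Aif1 at none, while Itgam did not exceed 1 count in any library. The 6 fibroblast markers summed to between 2.54 and 10.04 CPM in control and between 3.83 and 15.6 at 24 HPI. Dcn passed upward at 2 time points, while Col1a1, Col1a2 and Col3a1, also tested, passed at none. The time points of these calls, out of 1, 3, 8, 16 and 24 HPI, are not reported here. Over all genes tested, 10.7% passed upward at 16 HPI and 5.99% at 24 HPI. At 1, 3 and 8 HPI 0.276%, 0.189% and 7.68% passed in either direction. The 6 keratinocyte markers summed to a mean of 2.48 CPM in control and 3.22 at 24 HPI, with Krt5 at 0 in every library and Trp63 at 0 in 17. The 8 glial markers had a mean sum of 101 CPM in control and 86.9 at 24 HPI, and the 4 endothelial markers 1.12 and 1.00. The part of these cells in the rise of Bpifc, Upp1 and Dhrs9 was not tested.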

How the data were processed

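RNA was sequenced from eDRG spot cultures in 6 groups of 3 libraries. Per the labels the RNA was depleted of rRNA and made into cDNA with a SMARTer kit. The authors trimmed reads with cutadapt, aligned them to mm10 with STAR and counted them on genes, and the deposited values are raw counts without batch correction. The submitters' processing notes name FastQC, STAR, HTSeq and DESeq2, whereas the methods name featureCounts as the counter. Between 25.2% and 33.2% of counts in a table fell on no gene and were left out. Strand use in counting is not given in the sources used here. The methods name GENCODE vM20, and GENCODE vM21 supplied names and positions here, matching 47224 of 47643 identifiers. No pair of libraries held identical counts.

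The 4 genes, the gene lists, the motifs and the tests were chosen with earlier results of these data known. Counts were fitted in R 4.3.3 with edgeR 4.0.16 (quasi-likelihood, TMM) on 13771 genes over 1 CPM in at least 3 libraries, with terms for time point and replicate number, and tests were two-sided. A gene passed at a Benjamini-Hochberg adjusted p under 0.05. The steps between injured time points were fitted too, but no p is given for the 4 genes, whose choice used these libraries. The replicate number was kept as a block because the authors corrected for batch and because same-numbered libraries deviated together (45 pairs, r from 0.484 to 0.765, against -0.577 to -0.0423 for 90 other pairs). Deviations from a group mean cancel within the group, so the negative values follow from the positive ones and are no separate evidence. Nothing says that the 3 libraries of a group came from separate dissections, so p-values measure the spread between these libraries, which may be technical. CPM was taken over counts on genes, RPKM over all exon bases, and log2 CPM for correlations with a prior count of 2. Fitted folds of genes with few control reads depend on how low counts are handled, so exact 95% binomial intervals of pooled count ratios are given beside them. These intervals pool the libraries of a group, cover counting error only and are no test of the 4 genes. The model was tested on simulated data in which 200 genes were raised 4-fold from 8 HPI on. At 8 against 3 HPI it recovered 200 of these and made 12 false calls. The simulated data held no replicate effect, so the replicate term was not exercised. Their levels were means over all libraries, so the low control levels of Upp1 and Bpifc were not reproduced. Genes named are the 4, their nearest tested neighbours, the 5 tested genes most alike to each, close relatives, and at most 4 genes per list that passed at 16 or 24 HPI, by size, and some genes under this rule are not reported here. Alternatives were DESeq2 1.42.0, its size factors, a minimum of 10 counts, no block, the compared groups alone, rRNA-like and mitochondrial genes left out, each library left out, the longest transcript's length and the 100 bases before the start.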

Additional observations from a re-analysis of the deposited data

How the results depend on the processing

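The levels against control of Bpifc, Upp1, Dhrs9 and Zfp185 at 8, 16 and 24 HPI were positive in all 6 alternative fits and with each of the 18 libraries left out. With DESeq2 the log2 fold change of Upp1 at 16 HPI was 4.58. Without the replicate block the step from 8 to 16 HPI was 2.03 for Upp1 and 1.17 for Dhrs9, and no value of the 4 genes changed direction. The cause of these changes was not tested.

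With each library left out in turn, the log2 fold change of Bpifc was -0.012 to 1.29 at 3 HPI and 1.46 to 2.77 at 8 HPI, of Upp1 4.14 to 4.68 at 16 HPI, of Dhrs9 -0.51 to 0.58 at 1 HPI and -0.16 to 0.55 at 3 HPI, and of Zfp185 1.77 to 2.00 at 1 HPI and 1.62 to 1.80 at 16 HPI. The step from 8 to 16 HPI was 2.44 to 3.13 for Bpifc, 1.57 to 2.28 for Upp1 and 0.82 to 1.42 for Dhrs9. The step of Bpifc from 3 to 8 HPI was 1.02 to 2.24. The step from 16 to 24 HPI was -0.96 to -0.31 for Bpifc, -0.074 to 0.23 for Upp1, -0.14 to 0.49 for Dhrs9 and -1.08 to -0.63 for Zfp185. The step from 1 to 3 HPI was -1.10 to 0.12 for Bpifc, -1.08 to 0.49 for Upp1 and -0.38 to 0.71 for Dhrs9, and that of Zfp185 from 3 to 8 HPI was -0.090 to 0.38. With single control libraries of 0 to 2 counts of Upp1 and Bpifc, the depth limits the size of every fold against control.

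The number of related genes that passed was 0, 1, 8, 25 and 18 at 1, 3, 8, 16 and 24 HPI. With a library left out it was 0 to 1, 0 to 3, 1 to 9, 17 to 25 and 12 to 19. At 8 HPI it was 5 without control replicate 1 or 2, 2 without control replicate 3, and 4 and 1 without replicates 1 and 3 at 8 HPI. Without the replicate block it was 0, 0, 0, 7 and 2. With the 2 groups alone it was 2, 0 and 3 at 1, 3 and 8 HPI. With a minimum of 10 counts it was 2 at 3 HPI, with rRNA-like and mitochondrial genes left out 1 at 1 HPI, and with DESeq2 1 at 1 HPI and 2 at 3 HPI. Neighbouring genes that passed were 0 at 16 and 1 at 24 HPI, and 0 to 1 at both with a library left out, and 0 at 24 HPI without the block. Over all genes tested, those that passed at 16 against 8 HPI were 2088, and 207 without the block. At 8, 16 and 24 HPI against control they were 1058, 3055 and 2068, and 61, 706 and 153 without the block. At 1 and 3 HPI they were 38 and 26, with 136 and 149 in DESeq2. The level of Upp1 at 24 HPI was 0.494 RPKM and 0.759 over the longest transcript. In the 100 bases before a RefSeq start, the number of genes with a motif fell from 1 to 0 for CCAAT and from 3 to 1 for the GC box. It fell from 1 to 0 for the TATA box and stayed 3 for AP-1.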
